A study of Rattus norvegicus with 40 samples.

Results

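The miRNAs miR-150 and miR-342 are abundant in lymphocytes and were followed here in the plasma of rats with traumatic brain injury (TBI). The members were the rows of the read count matrix whose names begin with rno-miR-150 or rno-miR-342, whatever the arm. This gave 4 of the 752 miRNAs in the matrix, namely rno-miR-150-5p, rno-miR-150-3p, rno-miR-342-3p and rno-miR-342-5p. Plasma came from 20 adult male Sprague-Dawley rats, each sampled on D2 and on D9 after the operation, which gave 40 small RNA libraries. The sham group held 4 rats that were operated on without the impact. The TBI group held 16 rats with lateral fluid-percussion injury, a pressure pulse delivered to the exposed dura over 1 hemisphere. In 7 of them (TBI+) and not in the other 9 (TBI−), epilepsy was later found by video-EEG, so both outcomes were still in the future when the blood was drawn. Blood was drawn from the tail vein under isoflurane in all groups, and each library is 1 rat on 1 day.

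A miRNA gene is transcribed as a hairpin whose 5p and 3p arms are cut out by Drosha and Dicer, after which 1 arm is usually kept on an Argonaute protein as the guide and the other is mostly degraded. The guide pairs with target mRNAs mainly through its seed, bases 2 to 8 from the 5′ end. miR-150 is high in mature B and T cells and is known for its control of the transcription factor Myb during lymphocyte development, and its 5p arm is the usual guide. miR-342 lies in an intron of Evl, is also found in lymphocytes and other leukocytes, and its 3p arm is the usual guide. In plasma, miRNAs released by many cell types are mixed, so a lower level can mean fewer cells of a type or less miRNA released per cell, and these cannot be told apart in such samples.

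Sequences were found in RefSeq (assembly GRCr8) for 2 of the 4 members. They are shown because both arms of Mir342 were measured, and the seed is in capitals.
rno-miR-342-3p: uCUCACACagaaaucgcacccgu
rno-miR-342-5p: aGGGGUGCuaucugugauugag
The 3p arm is 23 bases long at chr6:133329715-133329737 and the 5p arm 22 bases at chr6:133329673-133329694, both on the plus strand of GRCr8. In the hairpin of 99 bases at chr6:133329655-133329753, printed next with both arms in capitals, the 5p arm fills positions 19 to 40 and the 3p arm positions 61 to 83.
Mir342 hairpin: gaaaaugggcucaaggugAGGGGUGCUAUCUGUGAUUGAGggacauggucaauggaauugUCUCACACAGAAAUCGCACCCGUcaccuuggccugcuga
None of the other mature rat miRNAs in the RefSeq table had the seed of either arm. Mir342 overlapped Evl and the uncharacterized LOC102555052. Mir150 on chromosome 1 overlapped no other gene in that annotation.

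Library totals lay between 404542 and 2562083 reads on D2 and between 140636 and 2864893 on D9, and the 4 sham D9 libraries, with 140636 to 358202 reads, were shallow. Reads assigned to the rarest member went down to 15 in 1 library, so the precision differed widely between arms and libraries. The library of sham rat 2 on D9 stood apart from the other sham libraries in 3 of the 4 members, and results that rest on it are given with and without it. The library numbers in the sample names fall into 3 runs, whose meaning the labels do not give. All sham D2 libraries are in run 1 and all sham D9 libraries in run 3. In sham rats the day and the run therefore cannot be told apart. On D2 the TBI+ libraries are in runs 1 and 2 and the TBI− libraries in runs 2 and 3. On D9 the TBI+ libraries are in runs 1 and 3 and the TBI− libraries in runs 1 and 2. TBI− and sham libraries thus share no run on either day, so a difference between them cannot be told apart from the run. The hemolysis index, here log2 of the miR-451-5p reads over the miR-23a-3p reads with 1 read added to each, was higher on D9 than on D2 in 20 of 20 rats.

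All 4 arms had reads in all 40 libraries. Levels are in CPM, reads per 1000000 reads of the library. miR-150-5p, the miR-150 guide, was 1 of the most abundant plasma miRNAs, with a mean of 18192 CPM on D2 (rank 15 of the 565 miRNAs detected that day) and 23567 CPM on D9 (rank 12 of 541). miR-342-3p, the miR-342 guide, had a mean of 651 CPM on D2 and 668 CPM on D9, rank 76 on both days. The partner arms were rarer. miR-150-3p averaged 126.4 CPM on D2 and 207 CPM on D9, and miR-342-5p averaged 59.7 and 80.7 CPM.

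**Figure D1:**
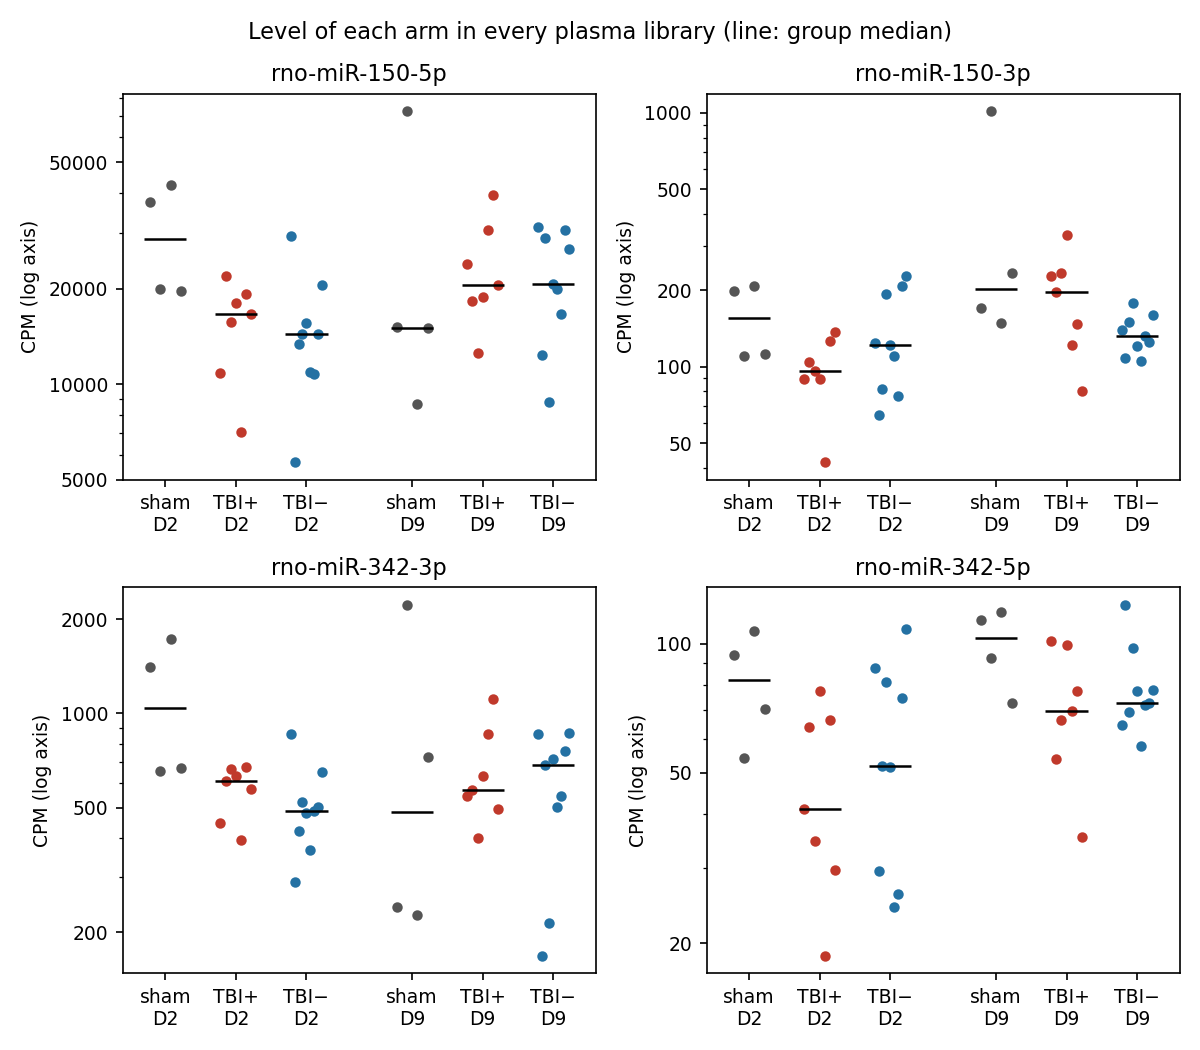
CPM (log axis) of each arm in every library, by group and day; each point is 1 rat and the line is the group median. On D2 the guide arms miR-150-5p and miR-342-3p were lower in 13 of 16 TBI rats than in any sham rat, and on D9 1 sham rat lies far above the others in 3 of the 4 panels.

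Differences on D2 between TBI and sham rats were tested first, to ask whether injury changed these plasma miRNAs early. Both guide arms were lower in TBI rats and both partner arms did not pass the test. In sham rats, miR-150-5p was at 37546, 19912, 42490 and 19688 CPM in rats 1 to 4. In the 16 TBI rats, it lay between 5678 and 29382 CPM with a median of 14984 CPM. Sham rats 1 and 3 were high, sham rats 2 and 4 lay within the upper end of the TBI range, and 13 of the 16 TBI rats were below all sham rats. The log2FC of miR-150-5p was −0.85 ± 0.26 (SE, n = 4 and 16, adjusted p = 0.0443, edgeR's quasi-likelihood test).

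miR-342-3p was at 1407, 657, 1726 and 671 CPM in sham rats 1 to 4. The TBI rats lay between 290 and 857 CPM with a median of 512 CPM. The same sham rats, 1 and 3, were high, the groups overlapped at the lower sham levels, and again 13 of 16 TBI rats were below all sham rats. Its log2FC was −0.93 ± 0.22 (SE, edgeR adjusted p = 0.00803).

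The partner arms overlapped more. miR-150-3p was at 199, 110.8, 208 and 113 CPM in sham rats 1 to 4 and between 42.2 and 228 CPM in TBI rats (median 107 CPM). The log2FC was −0.26 ± 0.31 (SE, edgeR adjusted p = 0.678). miR-342-5p was at 94.2, 54.3, 107 and 70.6 CPM in sham rats and between 18.7 and 108 CPM in TBI rats (median 51.8 CPM). Its log2FC was −0.45 ± 0.34 (SE, edgeR adjusted p = 0.482). The ratio of the arms, tested further on, was not shown to differ between TBI and sham rats on D2, so the guides were not shown to fall more than their partners.

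Of the 4 members, 2 were thus called lower on D2, where 3.01% of all 565 miRNAs tested were called lower. The median log2FC of the members was −0.65, beside 0.09 for all miRNAs tested. Without sham rat 3 the log2FC of miR-150-5p was −0.63 (edgeR adjusted p = 0.266) and that of miR-342-3p −0.63 (0.14), and without sham rat 1 that of miR-150-5p was −0.80 (0.149). Without sham rat 2 or 4 it was −0.98 (0.0397) and −1.05 (0.0287). With the run of library numbers as a covariate the values were −0.79 (0.282) and −0.87 (0.126). Within run 1, which holds all sham D2 libraries and TBI+ rats 1 to 4, the log2FC was −0.82 for miR-150-5p (edgeR adjusted p = 0.033) and −0.89 for miR-342-3p (0.0123). There miR-150-5p spanned 10856 to 21847 CPM in the TBI+ rats and miR-342-3p 446 to 665 CPM.

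The TBI+ and TBI− rats were then compared with sham rats separately. miR-150-5p on D2 had a median of 16589 CPM in TBI+ rats (7044 to 21847 CPM) and of 14344 CPM in TBI− rats (5678 to 29382 CPM). Against sham rats, its log2FC was −0.86 ± 0.30 in TBI+ (SE, edgeR adjusted p = 0.123) and −0.85 ± 0.29 in TBI− (0.0862), so neither passed the threshold. miR-342-3p had a median of 609 CPM in TBI+ (395 to 674 CPM) and of 489 CPM in TBI− (290 to 857 CPM). Its log2FC against sham rats was −0.88 ± 0.26 in TBI+ (edgeR adjusted p = 0.0526) and −0.97 ± 0.25 in TBI− (0.0128). Hence 0 of 4 members were called lower in TBI+, where 0.885% of miRNAs were, and 1 of 4 in TBI−, where 3.01% were. With the run of library numbers as a covariate, the log2FC of miR-342-3p was −0.87 ± 0.31 in TBI+ (SE, edgeR adjusted p = 0.137). In TBI−, which shares no run with the sham rats, it was −0.94 ± 0.44 (0.495). By DESeq2, 1 of 4 members was called lower in TBI+ and 1 in TBI−, where 7 and 16 of 565 miRNAs were. At an unadjusted p under 0.05 edgeR counted 2 members in TBI+, where 93 of 565 miRNAs were counted in either direction.

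The epilepsy outcome groups were not told apart by any member on D2. The log2FC of TBI+ against TBI− was −0.02 ± 0.25 for miR-150-5p (SE, edgeR adjusted p = 1), 0.09 ± 0.21 for miR-342-3p (0.981), −0.47 ± 0.31 for miR-342-5p (0.799) and −0.57 ± 0.26 for miR-150-3p (0.694). Over all 565 miRNAs, 0 (0.0%) were called by edgeR and 0 by DESeq2, with 38 and 26 at an unadjusted p under 0.05. miR-150-3p was 1 of those 38 (unadjusted p = 0.0379, a value of the fit across all miRNAs with edgeR), with 97.9 ± 30.8 CPM in TBI+ (SD, n = 7) and 135 ± 61.0 CPM in TBI− (SD, n = 9). With the run of library numbers as a covariate its log2FC was −0.26 ± 0.37 (SE, edgeR unadjusted p = 0.483). In run 2, the only run with both outcome groups on D2, its median was 126.6 CPM in TBI+ and 122.3 CPM in TBI−.

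On D9, the TBI and sham rats were compared in the same way. miR-150-5p was at 15124, 72512, 8636 and 15020 CPM in sham rats 1 to 4. In TBI rats it lay between 8804 and 39473 CPM with a median of 20595 CPM. Sham rat 2 lay above all TBI rats and the other sham rats lay in the lower part of the TBI range. The log2FC was −0.19 ± 0.37 with all sham rats (SE, edgeR adjusted p = 0.859) and 0.79 ± 0.36 without sham rat 2 (0.318), so the direction turned on that rat.

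miR-342-3p behaved likewise, with 242, 2227, 228 and 729 CPM in sham rats 1 to 4. The TBI rats lay between 169 and 1108 CPM with a median of 602 CPM. Here too sham rat 2 was above all TBI rats, while sham rats 1 and 3 were near the bottom of the TBI range. The log2FC was −0.35 ± 0.42 (SE, edgeR adjusted p = 0.786) and, without sham rat 2, 0.65 ± 0.42 (0.56).

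miR-150-3p on D9 was at 170.7, 1018, 148 and 235 CPM in sham rats 1 to 4 and between 80.1 and 330 CPM in TBI rats (median 143 CPM). Its log2FC was −1.18 ± 0.36 (SE, edgeR adjusted p = 0.0593) with all sham rats and −0.22 ± 0.34 without sham rat 2 (0.876). miR-342-5p was at 114, 92.5, 118.8 and 72.6 CPM in sham rats and between 35.5 and 123 CPM in TBI rats (median 72.3 CPM). The log2FC was −0.28 ± 0.29 (SE, edgeR adjusted p = 0.742). Sham rat 2 was not high for this arm.

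In sham rat 2 on D9, miR-150-5p, miR-150-3p and miR-342-3p were 5.61, 5.51 and 5.58 times the mean of the other 3 sham rats, and miR-342-5p was 0.91 times that mean. The 95% Wilson intervals, which cover counting error only, were 71260 to 73785 CPM for miR-150-5p (11756 reads), 874 to 1185 CPM for miR-150-3p and 2009 to 2468 CPM for miR-342-3p (361 reads). The interval of miR-342-5p, from 15 reads, was 56.1 to 153 CPM. On D2 the same rat had 19912 CPM of miR-150-5p, 110.8 of miR-150-3p and 657 of miR-342-3p, among the lower sham values. The leukocyte miRNA miR-146a-5p, a regulator of innate immune signaling, was at 13311 CPM in that D9 library and between 559 and 1262 CPM in the other sham D9 libraries.

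With all rats, 0 of 4 members were called lower in TBI on D9, where 2.4% of 541 miRNAs were. At an unadjusted p under 0.05 edgeR counted 1 member, miR-150-3p, where 86 of 541 miRNAs were counted in either direction. DESeq2 gave no p for miR-150-3p here (log2FC −1.31) and so could not call it. It called none of the other members, where 16 of the 541 were called lower. The paper's own DESeq2 comparison lists miR-150-3p as lower in TBI on D9. In TBI− against sham, where 3.51% were called lower, 1 of 4 was called, miR-150-3p, with a log2FC of −1.42 ± 0.38 (SE, edgeR adjusted p = 0.0291). That value was −0.47 ± 0.36 without sham rat 2 (0.716) and −0.26 ± 0.63 with the run of library numbers as a covariate (1). With all rats DESeq2 also called miR-150-3p lower in TBI− (log2FC −1.55, DESeq2 adjusted p = 0.00882), where 14 of 541 miRNAs were called lower. In TBI+ against sham, where 1.85% were called lower, 0 of 4 were called by edgeR. DESeq2 also called 0 of 4, where 9 of 541 miRNAs were called lower. The log2FC of miR-150-3p in TBI+ was −0.91 ± 0.41 (adjusted p = 0.264, unadjusted p = 0.0319 in the edgeR fit). TBI+ and TBI− did not separate on D9 either, with 0 (0.0%) of 541 miRNAs called by edgeR and 0 by DESeq2 (22 and 12 at an unadjusted p under 0.05). The log2FC of the members in that comparison lay between −0.11 and 0.51.

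**Figure D2:**
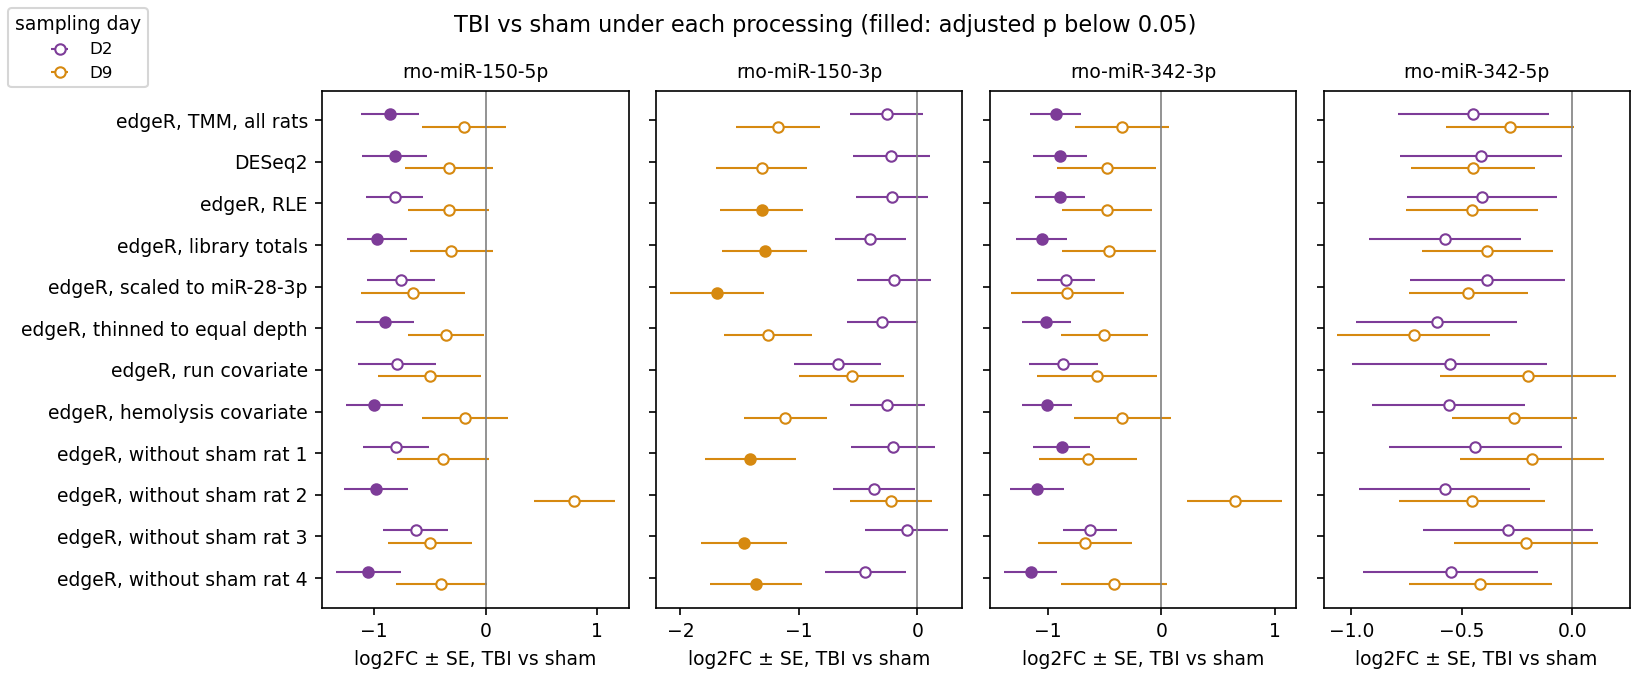
log2FC ± SE of TBI against sham for each arm on D2 (purple) and D9 (orange) under each way of processing; a filled point has an adjusted p below 0.05. On D2 both guides stay below 0 in every row shown, and on D9 they cross to the right of 0 when sham rat 2 is left out.

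Each rat was sampled on both days, so the change from D2 to D9 was followed per rat. In TBI rats, miR-150-5p rose in 13 of 16 rats, from a median of 14984 to 20595 CPM. The log2FC of D9 against D2 was 0.60 ± 0.21 (SE, edgeR adjusted p = 0.0252), and 0.58 ± 0.16 with the rat as a block (0.00237). Across rats the change ran from −0.71 to 2.12 on the log2(CPM + 1) scale (mean 0.57, exact two-sided sign-flip test p = 0.00598, 0.0844 after Benjamini-Hochberg adjustment over 35 such tests). By run, its mean was 0.15 in 4 TBI+ rats (run 1 to 3, 2 higher on D9). It was 1.16 in 3 TBI+ rats (run 2 to 1, 3 higher) and 0.40 in 4 TBI− rats (run 2 to 1, 3 higher). In 3 TBI− rats (run 3 to 2, 3 higher) it was 0.87. The 1 rat that stayed in run 2 changed by 0.41, and the 1 that went from run 3 to run 1 by 0.38. miR-342-5p rose in 12 of 16 TBI rats, from a median of 51.8 to 72.3 CPM. Its log2FC was 0.51 ± 0.19 (SE, edgeR adjusted p = 0.0391).

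For miR-342-3p, the TBI median was 512 CPM on D2 and 602 CPM on D9, and 11 of 16 rats were higher on D9. The log2FC was 0.24 ± 0.22 (SE, edgeR adjusted p = 0.418). For miR-150-3p, 10 of 16 rats were higher on D9 and the log2FC was 0.45 ± 0.22 (edgeR adjusted p = 0.123). Of the 4 members, 2 were therefore called higher on D9 in TBI rats, where 13.9% of 581 miRNAs were called higher.

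The hemolysis index moved with the day in the same rats. It was −0.28 ± 0.64 on D2 and 1.28 ± 0.63 on D9 in TBI rats (SD, n = 16). Of the 7 red blood cell miRNAs listed, 6 were in the matrix. In TBI rats their summed level was 88683 to 173067 CPM on D2 and 117570 to 274212 CPM on D9. In sham rats the index was higher on D9 in 4 of 4, while the median of this sum was 167283 CPM on D2 and 122217 CPM on D9. With the index as a covariate, the log2FC of miR-150-5p in TBI rats was 0.40 ± 0.32 (SE, edgeR adjusted p = 0.556) and that of miR-342-5p 0.45 ± 0.28 (0.371). The index was higher on D9 in 16 of 16 TBI rats, so this fit cannot cleanly separate it from the day. Over all 581 miRNAs, the count called went from 186 to 46 with this covariate. The part of hemolysis in the rise was not tested. With all libraries thinned to 140636 reads, the log2FC was 0.53 for miR-150-5p (edgeR adjusted p = 0.0543) and 0.23 for miR-342-5p (0.547).

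Within the outcome groups, miR-150-3p was the member called higher on D9 in TBI+ rats, with a log2FC of 1.03 ± 0.32 (SE, edgeR adjusted p = 0.0225). With the run of library numbers as a covariate it was 0.58 ± 0.36 (0.274). It was higher on D9 in 6 of 7 TBI+ rats and in 4 of 9 TBI− rats, where the log2FC was −0.01 ± 0.28 (edgeR adjusted p = 1). The difference between the outcome groups in this change was 0.79 on the log2(CPM + 1) scale and did not pass the exact permutation test (two-sided p = 0.0549, adjusted 0.333 over 35 such tests). TBI+ rats 1 to 4, sampled in run 1 on D2 and run 3 on D9, changed by 0.92 to 1.88, and TBI+ rats 5 to 7, from run 2 to run 1, by −0.77 to 1.51. In TBI+, 1 of 4 members was called higher where 4.82% of miRNAs were, and in TBI− 0 of 4 where 7.23% were. edgeR's count at an unadjusted p under 0.05 in TBI− was also 0 of 4, where 182 of 581 miRNAs were counted in either direction. DESeq2 called 0 of 4 there, where 49 of 581 miRNAs were called higher.

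In sham rats, miR-150-5p was lower on D9 in 3 of 4 rats and higher in sham rat 2. The log2FC was −0.14 ± 0.43 (SE, edgeR adjusted p = 0.994), and −1.34 ± 0.44 without sham rat 2 (0.0965). For miR-342-3p, sham rats 1 and 3 went from 1407 and 1726 CPM to 242 and 228 CPM, sham rat 4 was at 671 CPM on D2 and 729 CPM on D9, and sham rat 2 went from 657 to 2227 CPM. The log2FC was −0.43 ± 0.44 (SE, edgeR adjusted p = 0.681), and −1.62 ± 0.46 without sham rat 2 (0.0652). miR-150-3p had a log2FC of 1.28 ± 0.45 (edgeR adjusted p = 0.0791), which was 0.13 without that rat. miR-342-5p was higher on D9 in 4 of 4 sham rats, by 0.04 to 0.76 on the log2(CPM + 1) scale. The exact sign-flip test gave p = 0.125, the smallest p that 4 rats allow. By edgeR, 0 of 4 members were called, where 6.71% of 581 miRNAs were called in either direction. The lowest unadjusted p of the 4 in that edgeR fit was 0.0068, for miR-150-3p. DESeq2 called 1 of 4, miR-150-3p, where 47 of 581 miRNAs were called, 31 of them higher. That DESeq2 fit included sham rat 2, without which the edgeR log2FC of miR-150-3p was 0.13.

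**Figure D3:**
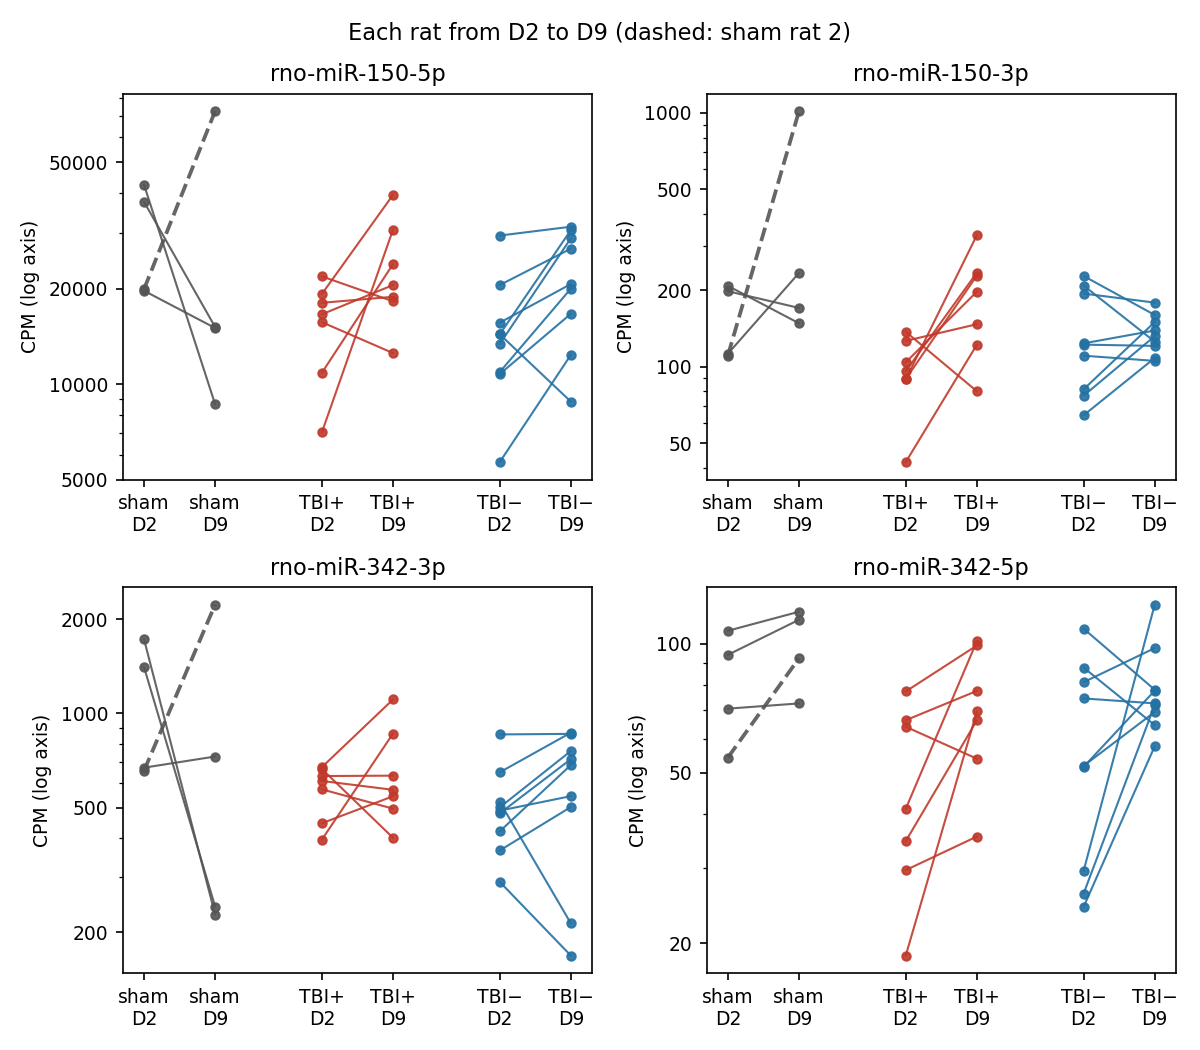
CPM (log axis) of each arm in each rat on D2 and D9, joined by a line per rat; sham rat 2 is dashed. In TBI rats miR-150-5p is higher on D9 in 13 of 16, and in sham rats it is lower on D9 in 3 of 4, the dashed line being the exception.

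The test of the difference between the TBI and sham day changes called 0 of 4 members with all rats, where 3.79% of 581 miRNAs were called. The difference was 0.74 ± 0.48 for miR-150-5p (SE, edgeR adjusted p = 0.492) and 0.67 ± 0.49 for miR-342-3p (0.554). It was −0.84 ± 0.50 for miR-150-3p and 0.20 ± 0.45 for miR-342-5p (adjusted p = 0.441 and 1). At an unadjusted p under 0.05, 0 of the 4 were counted, where edgeR counted 92 of 581 miRNAs. DESeq2 called 29 of the 581, with 0 members, and counted 86 unadjusted, with 1 member (miR-150-3p).

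Without sham rat 2, 2 of 4 members were called with a more upward change in TBI rats, where 1.21% of 580 miRNAs were. Those were the guides, miR-150-5p with 1.99 ± 0.48 (SE, edgeR adjusted p = 0.0236) and miR-342-3p with 1.91 ± 0.50 (0.0305). With the rat as a block as well, the values were 1.94 (0.00139) and 1.97 (0.0101). They compare 3 sham rats, all of whose D2 and D9 libraries lie in different runs, with 16 TBI rats. The TBI+ rats 1 to 4, which changed runs as the sham rats did, had a mean change of miR-150-5p of 0.15 on the log2(CPM + 1) scale, beside −0.53 in the 4 sham rats. That difference of 0.69 did not pass the exact permutation test (two-sided p = 0.457, adjusted 0.811 over 35 such tests). Without sham rat 2 the sham mean was −1.33 and the difference from the same TBI+ rats 1.49, with an exact permutation p of 0.0571, the smallest that 3 against 4 rats allow. For miR-342-3p the difference from those rats was 0.76 with all sham rats and 1.64 without sham rat 2 (exact permutation p = 0.457 and 0.229). Against all 16 TBI rats, the per-rat differences without sham rat 2 were 1.90 for both guides (exact permutation p = 0.00413 for miR-150-5p and 0.0165 for miR-342-3p, adjusted 0.144 and 0.193).

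The guides moved together from library to library, which the group comparisons do not show. On D2, miR-150-5p and miR-342-3p had a Pearson r of 0.92 and a Spearman rho of 0.88 over the 16 TBI rats. Both permutation p-values were 1e-05, the smallest that 100000 permutations can give (adjusted 0.00016 for r and 0.00032 for rho over 32 relations). Without the 2 rats farthest from the median of miR-150-5p, r was 0.88, and it was 0.91 within TBI+ (7 rats) and 0.95 within TBI− (9 rats). On D9, r was 0.89 (permutation p = 1e-05, adjusted 0.00016) and rho 0.86 (5e-05, adjusted 0.0008). r was 0.83 without the 2 farthest rats, 0.92 within TBI+ and 0.90 within TBI−. The points share the day, and the CPM of a library share its total. Values this high were not particular to the guides. Over the same 16 TBI rats, miR-342-3p had r = 0.92 with miR-30c-5p on D2 (0.76 on D9). With miR-361-5p it had r = 0.88 on D9 (0.52 on D2).

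Other pairs were less even across days. miR-150-5p and its own partner arm miR-150-3p had r = 0.62 and rho = 0.61 on D2 (permutation p = 0.0109 and 0.0151, adjusted 0.058 and 0.0805). Without the 2 farthest rats that r was 0.30, and with all rats r was 0.84 within TBI+ and 0.61 within TBI−. On D9 r was −0.18 and rho −0.16 (permutation p = 0.493 and 0.564, adjusted 0.657 and 0.785). miR-342-3p and miR-342-5p had r = 0.63 and rho = 0.68 on D2 (permutation p = 0.00777 and 0.0049, adjusted 0.0497 and 0.0392), with r = 0.57 without the 2 farthest rats. On D9 r was −0.34 and rho −0.04 (permutation p = 0.194 and 0.89, adjusted 0.366 and 0.918).

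Across the genes, miR-150-5p and miR-342-5p had r = 0.75 and rho = 0.73 on D2 (permutation p = 0.00059 and 0.00185, adjusted 0.00629 and 0.0197), and r = 0.67 without the 2 farthest rats. The partner arms miR-150-3p and miR-342-5p had r = 0.72 and rho = 0.64 (permutation p = 0.00149 and 0.00828, adjusted 0.0119 and 0.053), and r = 0.51 without them. On D9 the same pairs had r = −0.25 and r = 0.44 (rho = −0.16 and 0.27, adjusted permutation p = 0.545 and 0.193 for r). No relation of a member with the hemolysis index, with the library total or between its D2 and D9 levels passed the adjustment, where the smallest adjusted permutation p for r was 0.135. Between days, r was 0.27 for miR-150-5p, 0.47 for miR-342-3p, 0.21 for miR-342-5p and −0.02 for miR-150-3p (n = 16 rats, permutation p between 0.0648 and 0.929).

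**Figure D4:**
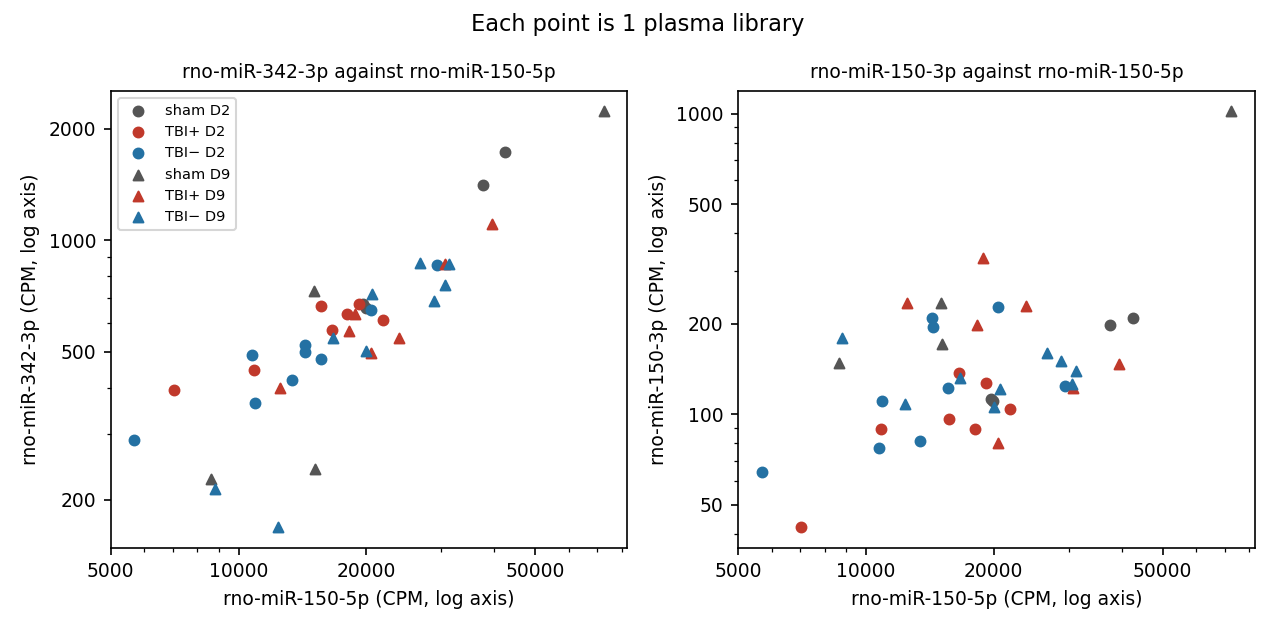
Level of miR-342-3p (left) and of miR-150-3p (right) against miR-150-5p, in CPM on log axes; each point is 1 library, with D2 as circles and D9 as triangles. The guides of the 2 genes line up over all 40 libraries (r = 0.86 as a description), and the arms of miR-150 do so less (r = 0.54).

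The ratio of the guides does not depend on how libraries are scaled. In sham rats on D2, miR-150-5p had 24.6 to 30.3 reads for each read of miR-342-3p, beside 17.8 to 35.9 (median 28.6) in TBI rats. On D9 the ratio was 20.6 to 62.6 in sham rats and 28.9 to 73.3 (median 36.0) in TBI rats, so the groups overlapped on both days. The exact permutation test of TBI against sham gave p = 0.968 on D2 and 0.802 on D9. From D2 to D9 the ratio rose in 13 of 16 TBI rats, by a mean of 0.45 on the log2 scale (SD 0.51). This change had an exact two-sided sign-flip p of 0.000854, 0.0299 after adjustment over 35 tests. It was higher on D9 in 3 of 4 sham rats, by a mean of 0.36 (exact sign-flip p = 0.375, smallest possible 0.125). Within pairs of runs the mean change in TBI rats was 0.29 (4 rats, run 1 to 3), 0.61 and 0.74 (3 TBI+ and 4 TBI− rats, run 2 to 1) and 0.46 (3 rats, run 3 to 2). The 1 rat that stayed in run 2 changed by −0.17, and the 1 that went from run 3 to run 1 by −0.04.

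The ratio of the arms of a precursor is likewise free of the scaling. For miR-150, the sham rats had 189, 180, 204 and 175 reads of the 5p arm per 3p read on D2 and 88.6, 71.2, 58.2 and 64.0 on D9, with no overlap between days. In TBI rats the ratio was 68.6 to 237 on D2 (median 133.5) and 49.2 to 268 on D9 (median 169). On D9, sham rats were thus in the lower part of the TBI range, with a geometric mean of 69.6 beside 139.3 (exact permutation p = 0.038, adjusted 0.376 over 18 tests). On D2 the geometric means were 187 and 130 (exact permutation p = 0.0627, adjusted 0.376).

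The run of library numbers moved with this ratio. It had a median of 190 in the 16 libraries of run 1, of 157.9 in the 12 of run 2 and of 79.9 in the 12 of run 3. TBI+ rats 1 to 4, which are in run 3 on D9 as the sham rats are, had 53.3 to 104.3 5p reads per 3p read, and TBI+ rats 5 to 7, in run 1, had 251 to 268. Against the TBI+ rats of their own run, the sham rats were not shown to differ, with a log2 difference of 0.08 on D9 (exact permutation p = 0.829) and −0.13 on D2 (0.6). The change from D2 to D9 was −1.42 ± 0.30 in sham rats (SD, n = 4, log2) and 0.09 ± 1.01 in TBI rats (SD, n = 16). That difference of 1.52 had an exact permutation p of 0.0111 (adjusted 0.193 over 35 tests). It was 0.21 against TBI+ rats 1 to 4, whose mean change was −1.21 on the log2 scale (exact permutation p = 0.743). Day, group and run cannot be told apart for sham rats.

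For miR-342 the guide was less dominant. Sham rats had 14.9, 12.1, 16.1 and 9.51 reads of the 3p arm per 5p read on D2 and 2.12, 24.1, 1.92 and 10.0 on D9. TBI rats had 5.98 to 21.1 on D2 (median 9.78) and 1.37 to 14.3 on D9 (median 9.53). Sham rats 1 and 3 on D9, with 34 and 46 reads of the 3p arm, and TBI− rats 2 and 4, with ratios of 1.37 and 2.19, were low, and the groups overlapped on both days. The exact permutation test of TBI against sham gave p = 0.437 on D2 and 0.438 on D9.

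**Figure D5:**
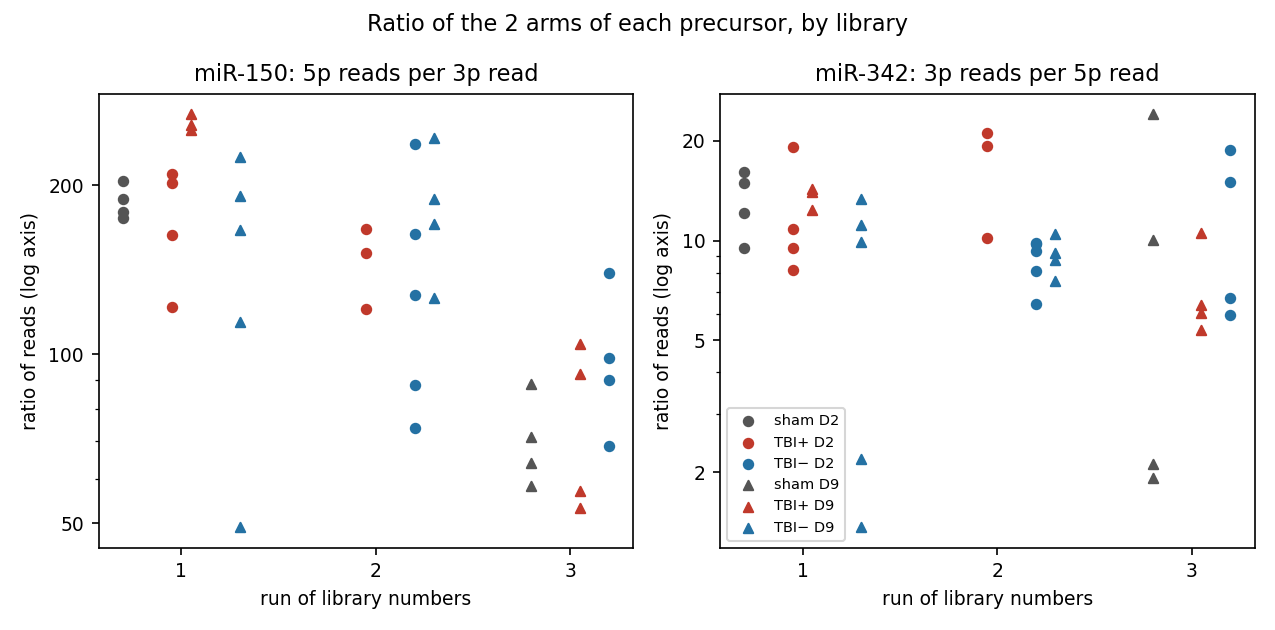
Ratio of the reads of the 2 arms of each precursor (log axis) by run of library numbers, with each point 1 library, D2 as circles and D9 as triangles. For miR-150 the ratio was lower in run 3 (median 79.9) than in run 1 (median 190), in sham and TBI+ libraries alike.

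The miRNAs whose levels were most like each member over the 40 libraries, among 266 others with a mean of at least 10 CPM, are given as a description. miR-150-5p was closest to miR-140-5p (r = 0.76), miR-425-5p (0.68) and miR-26b-5p (0.67), so miR-342-3p (0.86) was closer than any of them. miR-342-3p was closest, besides miR-150-5p, to miR-30c-5p (0.75), miR-455-3p (0.74) and miR-361-5p (0.74). The partner arms were nearest to other miRNAs. miR-150-3p was closest to miR-146a-5p (0.84), miR-146b-5p (0.79) and miR-155-5p (0.74), and miR-342-5p to miR-155-5p (0.76), miR-147 (0.68) and miR-361-3p (0.66). Without the D9 library of sham rat 2, the r of miR-150-3p was 0.73 with miR-146a-5p, 0.66 with miR-146b-5p and 0.64 with miR-155-5p. That of miR-342-5p with miR-155-5p was 0.80. Over the 16 TBI rats alone, the r of miR-150-3p with miR-146a-5p was 0.83 on D2 and 0.73 on D9. With miR-146b-5p it was 0.82 on D2 and 0.36 on D9, and with miR-155-5p 0.80 and 0.095. The libraries share rats, days and the CPM total.

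Other miRNAs of blood and tissue cells were listed to set the members beside them. Of 10 other lymphoid and leukocyte miRNAs (miR-155, miR-181a to d, miR-146 and miR-142 arms), 0 were called in TBI against sham on D2 by edgeR, with 3 at an unadjusted p under 0.05, and the median log2FC was −0.25. The 3 with the lowest p were miR-155-3p, miR-155-5p and miR-142-3p. miR-155-3p was nearly absent, with means of 0.573 CPM in sham and 0.0861 CPM in TBI rats (edgeR adjusted p = 0.222). miR-155-5p, induced in activated lymphocytes and macrophages, had a mean of 230 CPM in sham and 121 CPM in TBI rats (log2FC −0.73, edgeR adjusted p = 0.222). miR-142-3p, found in all blood cell lineages, had 450 and 272 CPM (−0.60, adjusted p = 0.222). On D9, 1 of the 10 was called lower, miR-146a-5p, with a log2FC of −2.13 ± 0.44 (SE, edgeR adjusted p = 0.00213) that was 0.02 without sham rat 2 (0.967). miR-146b-5p had a log2FC of −1.11 there (edgeR adjusted p = 0.094), and 0.02 without that rat. From D2 to D9, 3 of the 10 were called higher in TBI rats (miR-142-3p, miR-181c-5p and miR-155-5p) and 2 in sham rats, miR-146a-5p (log2FC 2.33) and miR-146b-5p (1.66). Both sham calls rested on sham rat 2, where miR-146b-5p was at 3368 CPM on D9, beside 337 to 712 CPM in the other sham D9 libraries. Without that rat the sham log2FC was 0.03 for miR-146a-5p and 0.38 for miR-146b-5p (edgeR adjusted p = 1 and 0.835).

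The myeloid miR-223 arms had 0 of 2 called on D2 and D9, with a summed level of 2001 to 3464 CPM in sham and 627 to 2909 CPM in TBI rats on D2. Of the red blood cell miRNAs, 0 of 6 were called on either day between TBI and sham, with medians of 0.23 on D2 and 0.70 on D9. Of those same 6, 4 were called higher on D9 in TBI rats and 0 in sham rats. Platelet and endothelial miRNAs had 0 of 2 called on each day, liver miRNAs 0 of 2 and muscle miRNAs 0 of 1, with miR-126a-5p, miR-122-5p, miR-1-3p and miR-133a-3p listed at 0 in every library. Neuronal miRNAs had 1 of 3 called higher on D2 and 0 of 2 on D9. The 1 was miR-124-3p, abundant in neurons, with 0 reads in every sham D2 library and a mean of 31.1 CPM in TBI rats on D2 (edgeR adjusted p = 1.74e-06). All counts of miR-124-3p were whole multiples of 3, for a cause that was not tested, whereas the counts of each member had no common divisor above 1. The label of the members as lymphocyte miRNAs cannot be checked in plasma, which holds no cells to identify.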

How the data were processed

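The deposited values are raw read counts per miRNA, which the authors made from plasma small RNA libraries (TruSeq Small RNA kit). Per the labels and methods, reads were trimmed with Trimmomatic 0.36, the data of both flow-cells merged, and reads aligned to Rno6 with Bowtie2 and counted on miRBase with featureCounts. Amplified reads are not independent molecules, so intervals and floors (3 reads, 1.05 to 21.3 CPM by library) cover counting error only.

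Groups, rats and days were read from the sample titles. CPM was reads per 1000000 of the library total. Comparisons used edgeR's quasi-likelihood test (TMM, Benjamini-Hochberg over all miRNAs with reads that day, adjusted p below 0.05), with 2 groups for TBI against sham, 3 for the outcomes and all 40 libraries for the days. The SE is |log2FC| divided by the square root of the F statistic. Ratios, day changes per rat (log2(CPM + 1)) and correlations used two-sided permutation tests, exact except for the correlations (100000 permutations). DESeq2, scalings, a count filter, thinning, covariates, blocks, runs and leaving out each sham rat were alternatives. Libraries of the same rat were treated as paired in the blocked fits. The correlation of their deviations from the group means was over 0.1 in 5 of 20 rats (270 miRNAs, median −0.06). Between different rats of the same group it was over 0.1 in 42 of 126 pairs (median −0.0072). The pairing thus comes from the design alone, and the day changes per rat rest on it. The fits were tested on simulated data, and no 2 libraries were identical. The members, lists and tests were chosen with earlier results of these data known, and the arm ratios, the tests of day changes between groups and the miR-146 values without sham rat 2 were added after the data were seen.

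The named miRNAs are the members, the 3 nearest to each, and up to 3 of each list with the lowest p in TBI against sham. Sequences and overlapping genes come from RefSeq, where 2 of 4 members matched. Versions were R 4.3.3, edgeR 4.0.16 and DESeq2 1.42.0, Python 3.11.15, numpy 2.4.6, pandas 2.3.3, scipy 1.17.1 and matplotlib 3.10.9.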

Additional observations from a re-analysis of the deposited data

Results flagged for a closer look

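The D9 library of sham rat 2 lay far from the other sham D9 libraries for both arms of miR-150, with 72512 CPM of miR-150-5p and 1018 CPM of miR-150-3p. The gap to the nearest sham rat was 0.90 of the range of the group in both cases, where 0.829 is the limit for 4 samples. Its miR-342-3p level of 2227 CPM was as high relative to the other rats but did not pass that limit. TBI− rat 2 on D9 lay apart from the other 8 TBI− rats in the ratio of the guides, with 73.3 reads of miR-150-5p per read of miR-342-3p (a gap of 0.70 of the range, limit 0.493 for 9 samples). In all, 42 groups of values were examined this way, and chance alone passes the limit in about 1 of 20 groups.

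The change of the miR-150 arm ratio from D2 to D9 differed between TBI and sham rats by 1.52 on the log2 scale (exact permutation p = 0.0111), and by 0.21 when the sham rats were set against the TBI+ rats of the same runs of library numbers (p = 0.743).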

How the results depend on the processing

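Alternatives were run for the members' log2FC in each comparison, all with the edgeR test unless named. On D2, TBI against sham kept its direction for all 4 members in all 15 alternatives. miR-150-5p stayed called in 10 of them and miR-342-3p in 12. The calls were lost with RLE scaling (miR-150-5p −0.81), with scaling to miR-28-3p (−0.75 and, for miR-342-3p, −0.84) and with the run as a covariate (−0.79 and −0.87). Leaving out 1 sham rat gave −1.05 to −0.63 for miR-150-5p and −1.15 to −0.63 for miR-342-3p. With the animal number as a replicate block, a number that pairs no rats across groups, they were −0.77 and −0.83, both called. On D9, miR-150-3p became called with RLE (−1.31), library totals (−1.29), scaling to miR-28-3p (−1.69) and filterByExpr (−1.31). Leaving out 1 sham rat gave −1.46 to −0.22 for miR-150-3p, −0.50 to 0.79 for miR-150-5p and −0.67 to 0.65 for miR-342-3p, and DESeq2 without sham rat 2, added after the data were seen, gave 0.76 for miR-150-5p and 0.60 for miR-342-3p. The sham day change of miR-150-3p became called with DESeq2 and RLE (1.54 each), scaling to miR-28-3p (1.95), filterByExpr (1.36), thinning (1.71) and the hemolysis covariate (1.63). That of miR-150-5p turned positive with DESeq2 and RLE (0.12 each), scaling to miR-28-3p (0.55), thinning (0.19) and the run (0.16), and that of miR-342-3p with scaling to miR-28-3p (0.28). Without 1 sham rat they ran −1.34 to 0.35 and −1.62 to 0.15. The TBI day change of miR-150-5p lost its call with scaling to miR-28-3p (0.66), thinning (0.53) and the hemolysis covariate (0.40). That of miR-342-5p lost it with DESeq2 and RLE (0.46 each), library totals (0.47), thinning (0.23), the run (0.50) and the hemolysis covariate (0.45). For the difference of the day changes, leaving out 1 sham rat gave 0.25 to 1.99 for miR-150-5p, −1.25 to 0.35 for miR-150-3p and 0.083 to 1.91 for miR-342-3p. With the rat as a replicate block and without sham rat 2, added later, they were 1.94, 0.37 and 1.97, and with the rat block and all rats 1.17, −0.40 and 1.04, none called. Over all 14 alternatives this difference went down to 0.11 for miR-150-5p and 0.018 for miR-342-3p, and up to 1.99 and 1.97. That of miR-342-5p turned to −0.077 with DESeq2, −0.076 with RLE, −0.081 with scaling to miR-28-3p and −0.42 with thinning. The rat block changed no other call of TBI against sham or of the days. In TBI+ against sham on D2, miR-342-3p became called with DESeq2 (−0.83), library totals (−0.97), filterByExpr (−0.86), thinning (−0.95), the hemolysis covariate (−0.95), run 1 alone (−0.89) and DESeq2 without sham rat 2 (−1.03), and miR-150-5p with run 1 alone (−0.82). Without 1 sham rat miR-342-3p ran −1.09 to −0.56 there and −1.21 to −0.69 in TBI−. In TBI−, miR-342-3p lost its call with scaling to miR-28-3p (−0.93) and with the run (−0.94), and miR-150-5p became called with library totals (−0.996), the hemolysis covariate (−1.004), the replicate block (−0.84) and DESeq2 without sham rat 2 (−0.99). On D9, miR-150-3p in TBI− lost its call with the run (−0.26), the replicate block (−0.84) and DESeq2 without sham rat 2 (−0.49), and ran −1.70 to −0.47 without 1 sham rat. The TBI+ day change of miR-150-3p lost its call with scaling to miR-28-3p (0.98) and with the run (0.58). The reversed values that follow were not called. On D2 against sham in TBI−, miR-150-3p (−0.03) ran −0.23 to 0.12 without 1 sham rat and miR-342-5p was 0.16 with the run. miR-150-5p in TBI+ against TBI− (−0.02) turned to 0.019 with DESeq2 and RLE, 0.017 with the hemolysis covariate, 0.058 with library totals, 0.10 with miR-28-3p, 0.0067 with thinning and 0.15 with the replicate block. On D9 against sham, without 1 sham rat, miR-150-5p ran −0.42 to 0.87 in TBI+ and −0.56 to 0.73 in TBI−, miR-342-3p −0.57 to 0.76 and −0.76 to 0.56, and miR-150-3p in TBI+ −1.20 to 0.043. DESeq2 without sham rat 2 gave 0.82, 0.72, 0.69 and 0.52 for the first 4 of these. With the run as a covariate, miR-342-5p in TBI− on D9 was 0.25 and miR-150-3p in TBI+ against TBI− was −0.29. The TBI− day change of miR-150-3p (−0.01) was 0.0048 with library totals, 0.054 with miR-28-3p, 0.17 with thinning, 0.084 with the rat as a replicate block and 0.33 with the run and with the hemolysis covariate. With TMM-scaled CPM, r with the hemolysis index turned to −0.10 for miR-150-3p on D2 and −0.0023 for miR-342-3p on D9. The cause of these changes was not tested. Counts of called miRNAs ran from 15 to 46 (35 as reported) for TBI against sham on D2, 0 to 29 (19) on D9, 2 to 47 (39) for the sham day change, 46 to 185 (186) for the TBI day change and 2 to 29 (22) for their difference. The count of 0 on D9 was without sham rat 2, with 70 at an unadjusted p under 0.05 and 17 called by DESeq2. With the shallow sham D9 libraries, a count of 3 reads stands for up to 21.3 CPM, so counting error weighs most on miR-342-5p and miR-150-3p. The SE of the fits, which also holds the spread between rats, was not larger for them. For TBI against sham on D9 it was 0.29 for miR-342-5p and 0.36 for miR-150-3p, beside 0.37 for miR-150-5p and 0.42 for miR-342-3p.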
